A study of Mus musculus with 4 samples.

Results

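The genes described here are VEGF family genes of the mouse heart: the ligands Vegfa, Vegfb, Vegfc and Pgf, the receptors Flt1, Kdr and Flt4, and the neuropilins Nrp1 and Nrp2. They were chosen by symbol, 9 of the 32285 genes in the matrices, as ligands, receptors and co-receptors of the family. A further ligand, Vegfd, is not among them and is given below with the receptor signalling genes. Left ventricle tissue of male wild-type C57BL/6J mice was made into droplet single-cell libraries for 4 conditions, with 1 library each. Young mice were 3 to 5 months old and aged mice 24 to 26 months old, and either had a sham operation (young sham, aged sham) or 45 min of ischemia by ligation of a coronary artery and then 24 h of reperfusion (young I/R, aged I/R). No transgene or knockout was involved, and how many mice a library came from is not stated in the sources used here. The sham libraries are sham by their titles and the methods, although their treatment label calls the tissue healthy. The molecule label of all 4 libraries reads nuclear RNA, although the methods describe cell suspensions.

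VEGF ligands are secreted dimers that cardiomyocytes, fibroblasts and other cells release and endothelial cells read. Vegfa is the main angiogenic ligand and a classic target of the hypoxia factors, and it signals through Kdr, also called VEGFR2, while Flt1, also called VEGFR1, binds it tightly with weak kinase output and serves largely as a decoy. Pgf and Vegfb bind Flt1, Vegfc acts on Flt4 of lymphatic vessels, and the neuropilins are co-receptors that also bind class 3 semaphorins.

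The 4 libraries held 91124 to 102883 barcodes and 25836175 to 66767829 UMIs, with a median of 244 to 675 UMIs per barcode, the young sham library being the shallowest and the aged I/R library the deepest. A UMI is 1 counted RNA molecule. Series of 4 values without labels are given first for young sham, then young I/R, then aged sham, then aged I/R. Levels below are CPM, the UMIs of a gene summed over all barcodes scaled to the same total in every library. Cardiomyocyte markers took 96963 to 119623 CPM and 17 endothelial markers 1134 to 1459 CPM, so RNA of heart muscle and endothelium was recognisable. Whether it came from the ventricle, as labelled, was not tested. Between 2366 and 2843 barcodes were shared by any pair of libraries, at most 2.83% of the smaller one. The libraries differed in their nuclear long noncoding RNA: Malat1 was at 73436 CPM in the young sham library against 22223 after I/R, and 28796 in the aged sham library against 43300 after I/R. Gm42418, a gene that overlaps ribosomal RNA, took 11.5%, 19.4%, 14.0% and 13.8% of UMIs, most in young I/R, and mitochondrial genes 10.00%, 14.1%, 15.6% and 9.98%. With totals that leave out these and Malat1, the young I/R over young sham log2 ratio was -1.81 for Vegfa, -1.41 for Nrp1 and -0.76 for Kdr. With 1 library per condition no test between conditions was possible, so no p-value is given. All intervals are exact 95% intervals that cover counting error only, not the spread between mice. A fall in the number of cells of a type and less RNA per cell cannot be told apart in such sums.

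Positions are in GRCm38 (mm10), the build of the counts. By GENCODE, Vegfa spans chr17:46016993-46032369 and Pgf chr12:85166635-85177790, both short genes of 15.4 and 11.2 kb, whereas Flt1 (chr5:147561604-147726011, 164 kb), Nrp1 (chr8:128358604-128503363, 145 kb), Nrp2 (115 kb) and Vegfc (109 kb) are long. RefSeq start windows, 250 bases before to 50 after a transcription start, were held for 9 of the 9 genes, 11 windows in all. The first window is printed for 4 of them because the results turn on the balance between Vegfa and Pgf and between Flt1 and Kdr. They run from 5′ to 3′ on the strand of the gene, at chr17:46032328-46032627 (minus strand), chr12:85177264-85177563 (minus strand), chr5:147725962-147726261 (minus strand) and chr5:75978406-75978705 (minus strand) of GRCm38.p6, with the Sp1 box GGGCGG or its reverse complement in capitals.
Vegfa: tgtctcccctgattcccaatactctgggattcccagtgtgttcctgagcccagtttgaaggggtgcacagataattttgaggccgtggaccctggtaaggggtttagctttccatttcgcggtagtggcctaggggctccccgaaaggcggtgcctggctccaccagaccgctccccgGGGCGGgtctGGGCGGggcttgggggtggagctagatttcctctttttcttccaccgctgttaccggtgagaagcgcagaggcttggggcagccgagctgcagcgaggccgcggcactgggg
Pgf: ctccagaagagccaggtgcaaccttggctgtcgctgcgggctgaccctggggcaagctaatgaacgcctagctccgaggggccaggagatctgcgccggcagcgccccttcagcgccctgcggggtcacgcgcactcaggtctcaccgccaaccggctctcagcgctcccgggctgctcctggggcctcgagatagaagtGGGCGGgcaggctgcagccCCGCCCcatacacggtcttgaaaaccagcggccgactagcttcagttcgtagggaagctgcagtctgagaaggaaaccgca
Flt1: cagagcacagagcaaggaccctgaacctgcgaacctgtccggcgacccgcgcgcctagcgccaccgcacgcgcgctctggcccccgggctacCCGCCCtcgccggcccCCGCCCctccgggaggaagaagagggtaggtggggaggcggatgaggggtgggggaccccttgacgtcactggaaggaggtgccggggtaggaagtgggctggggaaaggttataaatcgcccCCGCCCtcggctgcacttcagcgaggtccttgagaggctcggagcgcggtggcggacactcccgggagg
Kdr: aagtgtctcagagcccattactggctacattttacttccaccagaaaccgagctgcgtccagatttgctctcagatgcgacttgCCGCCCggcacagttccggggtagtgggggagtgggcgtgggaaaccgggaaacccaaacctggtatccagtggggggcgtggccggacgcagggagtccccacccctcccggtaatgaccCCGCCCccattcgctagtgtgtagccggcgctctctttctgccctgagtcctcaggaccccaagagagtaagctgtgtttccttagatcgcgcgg

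The Sp1 box was present on either strand in every one of these 4 windows, 2 copies each in Vegfa, Pgf and Kdr and 3 in Flt1, and in 35.7% of the 32841 mouse start windows of the same length. The hypoxia response core ACGTG, searched on both strands, was in 19.6% of all windows. Among the members it was in a second, internal start window of Vegfa only, 211 bases before that start. The ETS core CCGGAAG, in 8.86% of all windows, was in no member's window. These are matches of letters and not measured sites, and motifs outside the windows were not searched.

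Vegfa, the main ligand, was at 512 CPM in the young sham library against 132 after I/R, and 270 in the aged sham library against 246 after I/R, from 13226, 5223, 11148 and 16451 UMIs. Young sham was the high library and young I/R the low one, with both aged libraries between, and no counting intervals overlapped. In the young hearts Vegfa was thus 3.89-fold lower after I/R, a log2 ratio of -1.96 (interval -2.01 to -1.91), at the 4.26th percentile of 13746 genes. The same comparison in the aged hearts gave a log2 ratio of -0.13 (interval -0.16 to -0.09).

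Pgf, the placental growth factor that binds Flt1, was high in the library where Vegfa was low. It was at 26.5 CPM in young I/R (interval 24.9 to 28.2) against 14.0 in each sham library and 12.7 in aged I/R. Young I/R alone was high, and the intervals of the other 3 libraries overlapped. With I/R in the young hearts its log2 ratio was 0.92 (interval 0.75 to 1.10), at the 97.0th percentile of all genes, and that of aged I/R over aged sham was -0.14 (interval -0.30 to 0.01).

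Vegfb, a Flt1 ligand abundant in heart muscle, was nearly level per total UMIs: 150 CPM in the young sham library against 134 after I/R, and 147 in the aged sham library against 153 after I/R. Only young I/R (interval 130 to 137) lay outside the overlapping intervals of the rest. Vegfc, the lymphatic ligand, was sparse, with 116 to 299 UMIs per library. It was at 6.35 CPM in the young sham library against 2.92 after I/R, and 6.12 in the aged sham library against 4.48 after I/R, and the intervals of the sham libraries overlapped.

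Shares within the ligands do not depend on how libraries are scaled, but they do depend on which barcodes are summed. Those given first are over all barcodes. Vegfa made up 75.0% of the ligand UMIs in young sham (exact binomial interval 74.4 to 75.7) and 44.7% in young I/R, against 61.7% and 59.2% in aged sham and aged I/R. Pgf made up 2.05%, 8.99%, 3.20% and 3.05% in the same order. Vegfb held most in young I/R, 45.4%, and Vegfc 0.930% to 1.40%. In the Malat1 range of barcodes described below, Vegfa had 2145 UMIs and Vegfb 1279 in young sham, and 709 and 520 in young I/R. In aged sham they had 2473 and 1193 UMIs there, and in aged I/R 6653 and 4591. Vegfa relative to Vegfb was thus still lowest in young I/R, but by less, and highest in aged sham rather than young sham. UMIs of a 3′ library are not normalised for how well each gene is primed, so the shares compare libraries and do not rank the ligands.

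**Figure D1:**
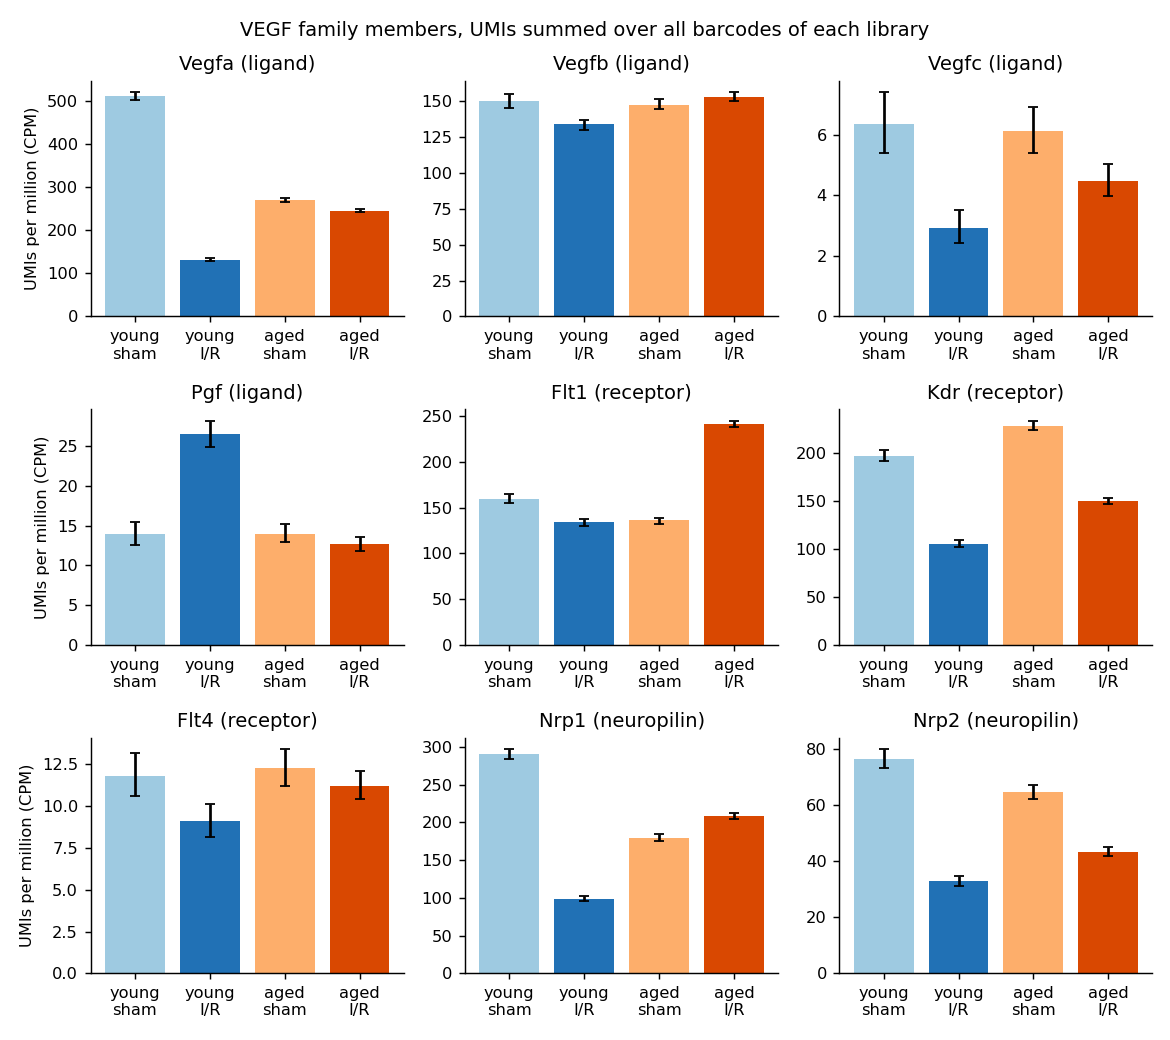
Level of each of the 9 genes (CPM, each panel with its own axis from 0) in the 4 libraries. Bars are the summed UMIs of 1 library and error bars exact 95% Poisson intervals. Vegfa ranges from 132 to 512 CPM with young sham highest, Pgf stands out in young I/R at 26.5 CPM, and Flt1 in aged I/R at 241 CPM.

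Among the receptors, Flt1 and Kdr parted. Flt1, the high-affinity decoy, was at 160 CPM in the young sham library against 134 after I/R, and 136 in the aged sham library against 241 after I/R. The aged I/R library was the high one, and the intervals of young I/R and aged sham overlapped. Kdr, the main signalling receptor, was at 197 CPM in the young sham library against 105 after I/R, and 229 in the aged sham library against 150 after I/R. Both I/R libraries lay below both sham libraries, with no overlap of intervals.

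The aged I/R over aged sham log2 ratio was 0.83 for Flt1 (interval 0.79 to 0.87, 92.5th percentile of 14981 genes) and -0.61 for Kdr (interval -0.65 to -0.57, 7.32nd percentile). In the young hearts the ratios were -0.26 for Flt1 (62.2nd percentile of 13746 genes) and -0.90 for Kdr (28.5th percentile), where the median of all genes was -0.48. Scaled by the median of gene-wise ratios, Kdr was at -0.47 there. The Flt1 ratio in the young hearts turned to 0.17 when libraries were scaled by the median of gene-wise ratios, so its direction there rests on the scaling.

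Flt4, the lymphatic receptor, was at 11.8 CPM in the young sham library against 9.10 after I/R, and 12.3 in the aged sham library against 11.2 after I/R, from 306 to 750 UMIs. Only young I/R (interval 8.18 to 10.1) lay apart from the rest. The sum of 4 genes listed as lymphatic markers was at 114, 65.9, 109 and 131 CPM in the same order. Most of it was 1 gene, Prox1, at 99.9, 42.4, 92.0 and 108 CPM. The sum therefore mainly followed Prox1, and which cells the Prox1 UMIs came from was not tested. With I/R in the young hearts 3 of the 4 were lower, where 76.3% of all genes were. The other, Pdpn, was higher, at 3.60 CPM in young sham and 17.0 after I/R. The part of this sum in the Flt4 and Vegfc levels was not tested.

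As a share of receptor UMIs, Flt1 held 43.4% in young sham (interval 42.4 to 44.4) and 53.9% in young I/R (52.9 to 54.9). In the aged hearts it held 36.0% with sham (35.3 to 36.8) and 60.0% with I/R (59.4 to 60.6). Kdr held 42.5% and 37.2% after I/R in the young and the aged hearts, against 53.4% and 60.7% with sham. The larger Flt1 share after I/R was therefore present at both ages on a measure that does not depend on library scaling.

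**Figure D2:**
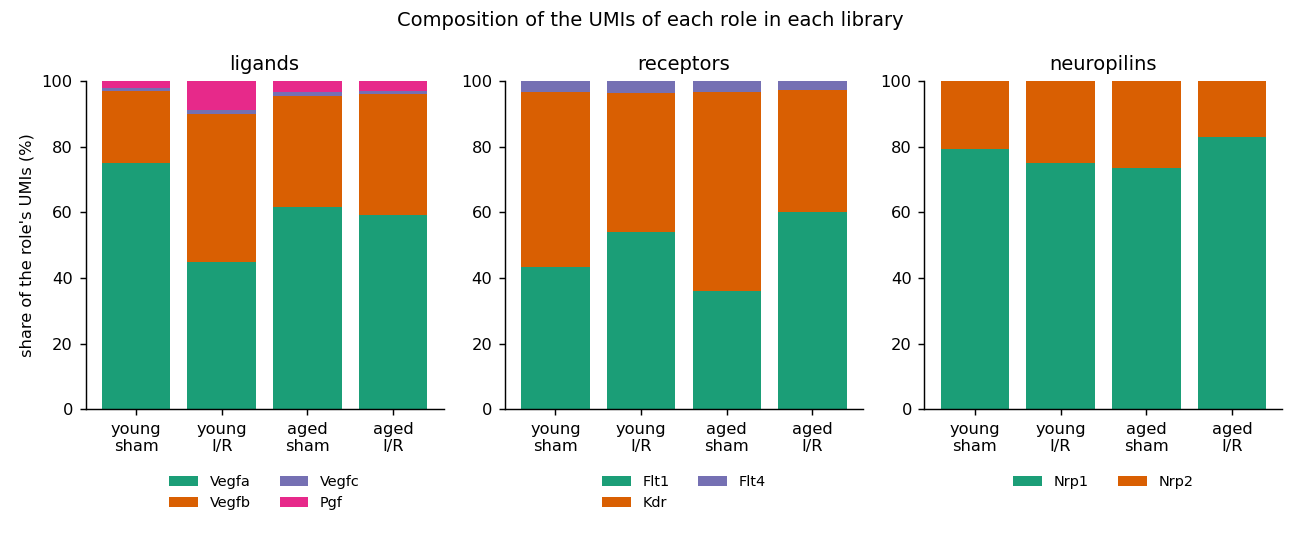
Share of the UMIs of the 4 ligands, the 3 receptors and the 2 neuropilins (percent, stacked to 100) held by each gene in each library. Flt1 holds 43.4 and 36.0% of receptor UMIs in young and aged sham and 53.9 and 60.0% in young and aged I/R. Vegfa drops to 44.7% of ligand UMIs in young I/R. All shares are over all barcodes, whatever their Malat1 share.

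Nrp1, the co-receptor that strengthens Vegfa binding to Kdr, was at 291 CPM in the young sham library against 98.6 after I/R, and 180 in the aged sham library against 209 after I/R. As for Vegfa, young sham was high and young I/R low, but aged I/R lay above aged sham. The log2 ratio was -1.56 in the young hearts (interval -1.62 to -1.50, 9.28th percentile) and 0.21 in the aged hearts (interval 0.17 to 0.25). Other marker sums were also lowest in young I/R, with fibroblast markers at 938, 607, 1086 and 989 CPM, mural markers at 611, 490, 675 and 621 and macrophage markers at 480, 331, 575 and 627. From sham to I/R in the young hearts 13 of 13 fibroblast, 9 of 9 mural and 13 of 16 macrophage markers were lower, where 76.3% of all genes were. Of further genes of these cell types, Steap4, Mcam, Loxl1, Tyrobp and Fcer1g were higher there. Cspg4, Col5a1, Col6a3, Htra3, Dock2 and Fyb were lower. The part of these cell types in the Nrp1 level was not tested.

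Nrp2, the co-receptor of lymphatic and venous endothelium, was at 76.4 CPM in the young sham library against 32.9 after I/R, and 64.8 in the aged sham library against 43.4 after I/R. As with Kdr, both I/R libraries were below both sham libraries. Its log2 ratios were -1.22 (interval -1.32 to -1.11) in the young and -0.58 (interval -0.65 to -0.50) in the aged hearts. Nrp1 held 79.2% of neuropilin UMIs in young sham and 75.0% after I/R, 73.6% in aged sham and 82.8% after I/R, so with I/R its share was lower in the young and higher in the aged hearts.

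A gene was counted as past the fold where its level differed at least 1.5-fold, a log2 ratio of 0.58, among genes that had 50 or more UMIs summed over the libraries compared. All 9 members met that minimum in all 4 comparisons. In young I/R over young sham, 5 members were past it lower (Vegfa, Vegfc, Kdr, Nrp1 and Nrp2), where 44.1% of all genes were, and 1 was past it higher (Pgf), where 5.65% of all genes were. The median log2 ratio of all genes was -0.48, and scaling by gene-wise ratios moved that median by 0.43. Under that scaling 16.9% of genes were higher and 23.8% lower, with 1 and 4 members, Kdr then being at -0.47.

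In aged I/R over aged sham, 1 member was past the fold higher (Flt1), where 15.4% of genes were, and 1 lower (Kdr), where 8.22% were. The median of all genes was 0.09. Nrp2 just missed the fold, at -0.58. It was past it, at -0.63 to -0.76, with gene-wise scaling, with totals without Gm42418, Malat1 and mitochondrial genes, in barcodes with at least 200 detected genes and in the Malat1 range described below, each of which gave 3 members past the fold. Under these, 11.7% to 14.4% of all genes were higher and 8.35% to 11.2% lower. Vegfa, Vegfb, Vegfc, Pgf, Flt4 and Nrp1 lay between -0.45 and 0.21.

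The age comparison between sham hearts gave no member past the fold higher, where 7.25% of genes were, and 2 lower, where 18.2% were. These were Vegfa at a log2 ratio of -0.93 (interval -0.96 to -0.89) and Nrp1 at -0.69 (interval -0.73 to -0.64). Kdr was at 0.22 and Pgf at 0.00. Vegfb and Vegfc, at -0.03 and -0.05, had intervals that included 0 and turned to 0.11 and 0.09 when scaled by gene-wise ratios.

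Between the I/R hearts, 4 members were past the fold higher in the aged library (Vegfa 0.90, Vegfc 0.62, Flt1 0.85 and Nrp1 1.08), where 41.1% of genes were. Pgf alone was past it lower, at -1.06 (interval -1.20 to -0.93), where 3.51% of genes were, and it lay at the 0.870th percentile of 14719 genes. The median of all genes was 0.45 here. Under scaling by gene-wise ratios 20.3% of genes were higher and 12.4% lower, with Nrp1 alone among the members past the fold higher and Pgf, at -1.45, lower. That scaling also turned Vegfb to -0.19 and Flt4 to -0.08. The 4 comparisons share libraries, so a single library that stands apart enters 2 of them.

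**Figure D3:**
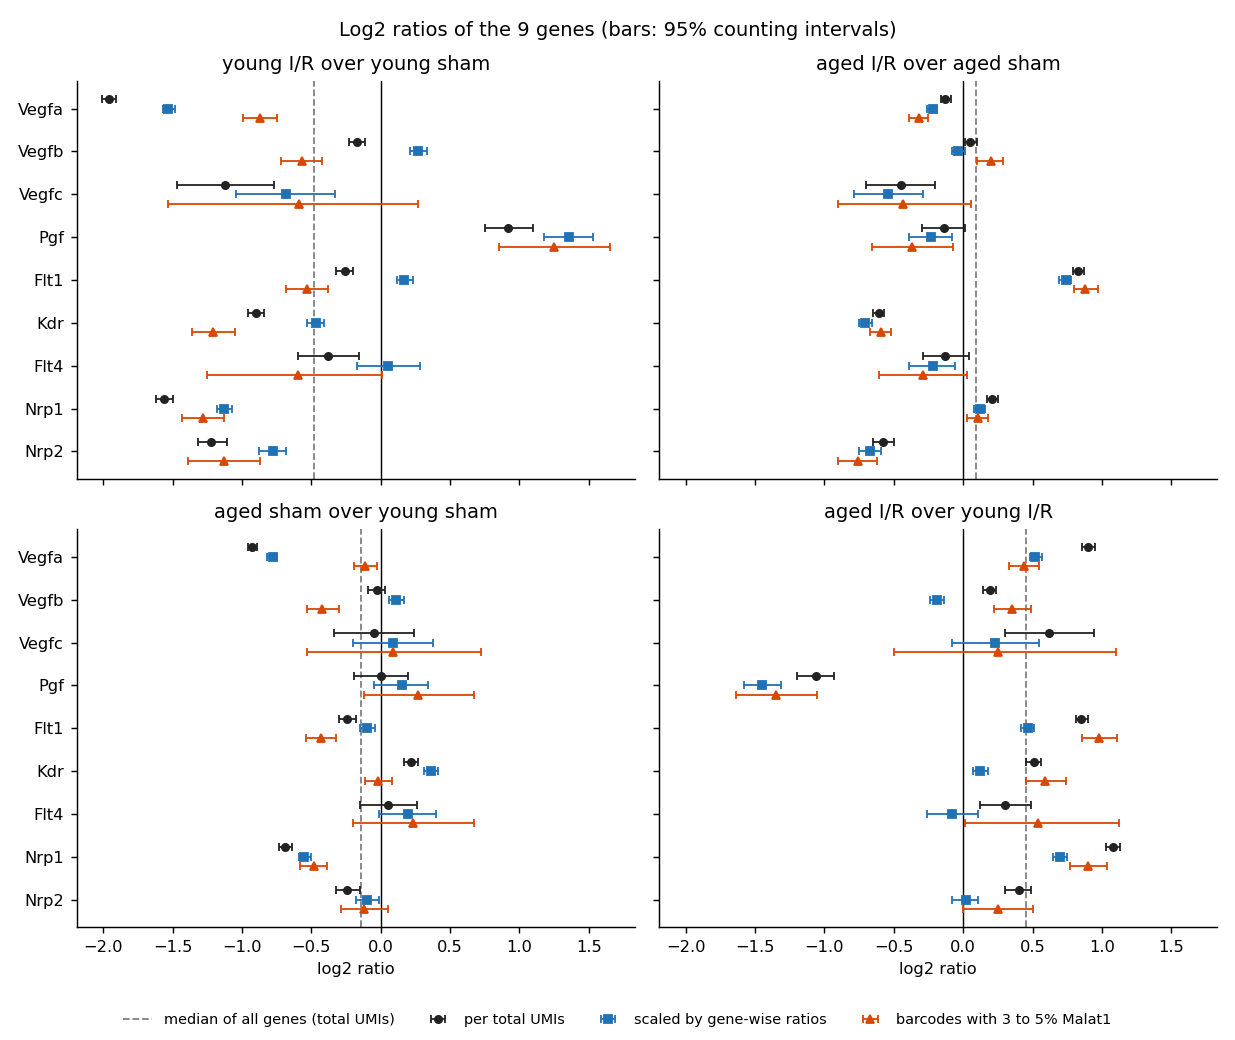
Log2 ratio of each gene (horizontal axis) in the 4 comparisons, per total UMIs (circles), scaled by the median of gene-wise ratios (squares) and within barcodes that took 3 to 5% of their UMIs from Malat1 (triangles), with 95% counting intervals. The dashed line is the median of all genes per total UMIs. Pgf stays at 0.92 or more in young I/R and Flt1 at 0.74 or more in aged I/R, while Vegfa in aged over young sham moves from -0.93 to -0.11.

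Malat1, an RNA kept in nuclei, had log2 ratios of -1.72 and 0.59 with I/R in the young and the aged hearts and -1.35 between the sham hearts. Nrp1 had the same order of libraries as Malat1, and Vegfa shared its highest and its lowest library. Kcnq1ot1, another nuclear RNA, was at 460, 152, 147 and 272 CPM in the same order of libraries as above, whereas Neat1 was between 2556 and 3024 CPM. Meg3, the fourth of the list, was at 168, 43.1, 68.0 and 38.2 CPM, with a log2 ratio of -0.83 in the aged hearts with I/R, opposite in sign to Malat1. Barcodes were therefore also split within each library into quartiles by their Malat1 share, an alternative chosen after seeing these values.

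Vegfa was highest in the Malat1-richest barcodes of every library. From the lowest to the highest quartile it went from 286 to 851 CPM in young sham, 106 to 192 in young I/R, 216 to 379 in aged sham, and 206 to 308 with I/R at that age, with no overlap of the intervals of those end quartiles. Nrp1 had a smaller gradient of the same sign, 249 to 333, 93.4 to 108, 162 to 202 and 194 to 219 CPM. Vegfb ran the other way, from 192 to 115 CPM in young sham and from 172 to 129 in aged I/R. Flt1 was lower in the top quartile of young sham (120 CPM against 172 in the bottom one), and Kdr likewise (155 against 221), with smaller differences in the other libraries. The end-quartile intervals of Pgf overlapped in every library.

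**Figure D4:**
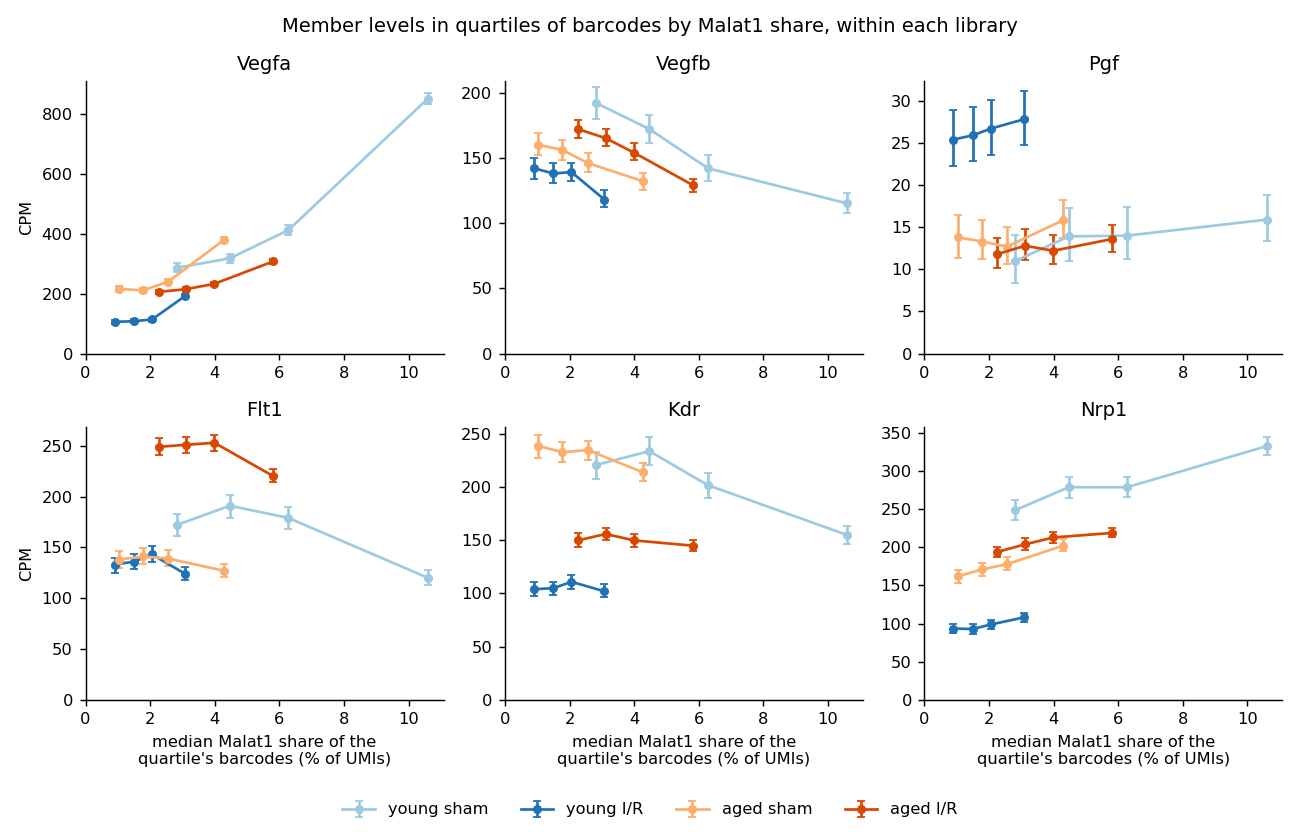
Level of 6 genes (CPM, vertical axis from 0) in quartiles of the barcodes of each library ordered by Malat1 share, placed at the median Malat1 share of each quartile (percent of UMIs), with 95% Poisson intervals. Vegfa is highest in the top quartile of all 4 libraries, at 851 CPM in that of young sham, while Pgf in young I/R stays at 25.4 CPM or more in every quartile and Flt1 in aged I/R at 220 CPM or more.

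Libraries were then compared within barcodes that took 3 to 5% of their UMIs from Malat1, 10396 to 42090 barcodes per library. The range held 31.3% of young sham barcodes and 10.1% after I/R, and 19.1% of aged sham barcodes and 46.2% after I/R. It took in the Malat1-poorer barcodes of young sham, whose lower quartiles had median shares of 2.82% and 4.47%, but the richest of young I/R, whose top quartile had a median of 3.08%. In these, Vegfa was at 306 CPM in young sham and 168 after I/R, and at 284 in aged sham and 227 after I/R. Its log2 ratio was -0.87 (interval -0.99 to -0.75) for young I/R over young sham, where it was -1.96 over all barcodes, and -0.11 (interval -0.19 to -0.03) for aged over young sham, where it was -0.93. The median of all genes in those barcodes was -0.27 and -0.03 in these comparisons. Another choice of barcodes, those with at least 200 detected genes, moved Vegfa the other way, to -2.31 and -1.32. The median of all genes was then -0.46 and -0.15. That choice kept 26140 of 92200 barcodes in young sham and 56835 of 102883 in young I/R. In the aged libraries it kept 68121 of 100342 with sham and 89990 of 91124 after I/R. It therefore set the deeper barcodes of young sham against larger parts of the other libraries.

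The other main I/R differences stayed past the fold within this range of Malat1. Pgf was at 13.1, 31.2, 15.8 and 12.3 CPM, a log2 ratio of 1.25 (interval 0.85 to 1.65) with I/R in the young hearts. Flt1 was at 0.88 and Kdr at -0.59 in aged I/R over aged sham. Nrp1 in young I/R over young sham was at -1.28 (interval -1.43 to -1.13), and Kdr and Nrp2 were at -1.21 and -1.13. The sparse Vegfc and Flt4 were just past the fold there, at -0.59 (interval -1.53 to 0.27) and -0.60 (interval -1.25 to 0.01). Both of these intervals included 0. Between the sham hearts Nrp1 was at -0.48, no longer past the fold. Vegfb, nearly level over all barcodes, was at -0.57 (interval -0.72 to -0.42) in young I/R over young sham. For aged over young sham it was at -0.42 (interval -0.53 to -0.30). Over all barcodes these ratios were -0.17 and -0.03. With a median of 244 to 675 UMIs per barcode, a barcode's Malat1 share rests on few UMIs. Counting error therefore enters the choice of barcodes, and neither the range nor the quartiles need match barcodes in nuclear RNA. What the Malat1 share of a barcode reflects was not tested.

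Gene length moved with the comparisons as well. For I/R in the young hearts the median log2 ratio was -0.35 for genes under 20 kb, the class of Vegfa, Vegfb and Pgf, and -0.76 for genes over 100 kb, the class of Flt1, Nrp1, Nrp2 and Vegfc. The log2 ratio minus the median of the gene's own length class was -1.61 for Vegfa, -0.80 for Nrp1 and -0.45 for Kdr, and 1.27 for Pgf and 0.50 for Flt1. For I/R in the aged hearts, where class medians ran from -0.01 to 0.24, that difference was 0.59 for Flt1, -0.72 for Kdr, -0.69 for Vegfc and -0.81 for Nrp2. For Nrp1 it was -0.03 there.

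The receptors are mainly endothelial genes. UMIs of receptors and neuropilins were therefore also set against those of the 17 endothelial markers, which hold no member and were at 1355, 1134, 1459 and 1342 CPM. With I/R 14 of the 17 were lower in the young hearts, where 76.3% of all genes were, and 12 in the aged hearts, where 42.3% were. Per 1000 endothelial marker UMIs Flt1 had 118 UMIs in young sham and 118 after I/R, 93.1 in aged sham and 180 after I/R. Kdr was at 145, 93.0, 157 and 112. Both sham libraries thus kept more Kdr per endothelial RNA than both I/R libraries, and Flt1 per endothelial RNA was highest in aged I/R. Nrp1 was at 214, 86.9, 124 and 155, Nrp2 at 56.4, 29.0, 44.4 and 32.3, and Flt4 nearly level at 8.03 to 8.74. Such values are ratios of library sums and not levels in endothelial cells.

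The marker sum itself depended on its genes. The sum of a second list of 5 endothelial genes was at 285, 305, 300 and 382 CPM, higher with I/R at both ages where the first was lower. In the young hearts 3 of the 5 genes were higher with I/R and 2 lower, where 76.3% of all genes were lower. Those 2 were Vwf, at 28.3 CPM in young sham and 18.0 after I/R, and Shank3, at 32.5 and 17.9. In the aged hearts all 5 were higher, where 42.3% of all genes were lower. Per 1000 UMIs of that list, Kdr was at 692, 346, 763 and 392, again lower with I/R, and Flt1 was at 563, 439, 453 and 631, lower with I/R in the young and higher in the aged hearts. Flt4, nearly level by the first list, was at 41.6, 29.8, 40.9 and 29.4 by the second, lower with I/R at both ages. Nrp1 in aged I/R over aged sham was 0.33 by the first list and -0.14 by the second, so that direction depends on the marker list.

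Values for single cell types could not be read from these matrices by the marker UMIs of single barcodes. Barcodes were not clustered here, whereas the authors clustered their samples and annotated cell types by marker genes. The UMIs of the 4 noncardiac marker lists varied over barcodes by only 1.02 to 1.13 times what depth alone would give, and those of cardiomyocyte markers by 1.23 to 2.33 times. Vegfa varied most among the members, by 1.07 to 1.16 times, and the others by 0.997 to 1.03 times. Barcodes with at least 4 endothelial UMIs at 5 times the library's share numbered 133, 162, 378 and 342, and the 5 check genes were only 1.07 to 1.83 times as high there as in the whole library.

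In young sham Kdr and Flt1 were higher in barcodes with more endothelial marker UMIs. Kdr was at 191 CPM in young sham barcodes without an endothelial marker UMI and at 252 (interval 205 to 306) in those with 3 or more, and at 224 and 268 in aged sham. In young I/R it was at 106 and 107, and in aged I/R at 147 and 150. Flt1 was at 152 and 214 in young sham and at 238 and 257 in aged I/R. In young I/R it was at 132 and 146 and in aged sham at 135 and 150, with overlapping intervals. Nrp1 was at 284 and 331, 95.8 and 146, 177 and 188, and 200 and 216 in the order of libraries above. Its intervals lay clearly apart in young I/R (92.0 to 99.7 and 118 to 178). Nrp2 was at 73.4 and 84.7, 31.9 and 41.4, 61.6 and 80.4, and 40.7 and 45.9, with intervals apart in aged sham only. Flt4 was too sparse to read, at 12.1 (interval 10.5 to 13.9) and 7.47 (1.54 to 21.8) in young sham, and its intervals overlapped in the other libraries too. Vegfa, released by many cell types, was at 519 and 483 CPM in young sham. By share of cardiomyocyte marker UMIs, Vegfa was at 394 CPM in the lowest and 606 in the highest quartile of young sham barcodes and at 236 and 322 in aged sham, against 126 and 144 in young I/R and 248 and 251 in aged I/R.

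The pathway lists below are read against the same shares of all genes past the fold: 5.65% higher and 44.1% lower in young I/R, 15.4% and 8.22% in aged I/R, 7.25% and 18.2% between sham hearts, and 41.1% and 3.51% in aged over young I/R. Of the genes that link low oxygen to Vegfa, 9 factors and sensors were measured. In young I/R none was past the fold higher and 2 lower, with a median of -0.18, the ends being Hif3a at 0.53 (interval -0.21 to 1.31) and Egln3, an oxygen-sensing prolyl hydroxylase, at -0.82. With I/R in the aged hearts 1 was past it higher, Hif3a at 1.47, and 1 lower, Vhl, the ubiquitin ligase subunit that removes HIF proteins, at -0.65. Between sham hearts none passed in either direction, the ends being Egln2 at 0.32 and Hif3a at -0.45. Aged over young I/R had Egln3 at 0.69 and Egln2 at -0.40 as its ends. Hif1a RNA, for comparison, had a log2 ratio of 0.00 with I/R at both ages per total UMIs. The median of all genes was -0.48 in the young and 0.09 in the aged hearts, so that likeness rests on the scaling.

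Of 23 genes of VEGF receptor signalling, 22 had enough UMIs. In young I/R 1 was past the fold higher, the adaptor Shb at 0.95 (interval 0.73 to 1.19), and 10 lower, down to Vegfd, a further lymphatic ligand, at -1.64 (interval -2.06 to -1.23), with a list median of -0.42 against -0.48 for all genes. After I/R in the aged hearts 5 were past it higher, led by Pik3r1, the regulatory subunit of PI3 kinase, at 1.02, and 1 lower, the kinase Src at -0.61. Shb was also at 0.96 in the aged hearts. Between sham hearts Src was the highest of the list at 0.74. Aged over young I/R had 8 past the fold higher, led by Vegfd at 1.59, and none lower, where 41.1% of all genes were higher. The list median was 0.39 against 0.45 for all genes.

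A further list held 10 genes that VEGF is known to induce in endothelial cells. Their UMIs were summed over all barcodes, so which cells they came from was not resolved. Of these genes, Rcan1, an inhibitor of calcineurin, was at 34.9 CPM in the young sham library against 161 after I/R. In the aged hearts Rcan1 was at 70.4 with sham against 66.5 after I/R. Its log2 ratio in young I/R was 2.20 (interval 2.10 to 2.30), the only one past the fold higher, while 5 of 9 were lower, where 44.1% of all genes were, down to the guidance receptor Unc5b at -1.45. In aged I/R none of 10 was past the fold higher and 4 were lower, down to Esm1, a tip cell proteoglycan, at -2.28 (interval -2.96 to -1.63), and Angpt2 was highest at 0.50. Esm1 was sparse, at 0.658, 0.504, 1.96 and 0.404 CPM, and aged sham was the high library, which made it the highest of the list between sham hearts at 1.57, with Unc5b the lowest at -0.41. Aged over young I/R ran from Unc5b at 1.35 to Rcan1 at -1.27.

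Of 12 semaphorins and plexins, the other partners of the neuropilins, 11 had enough UMIs. In young I/R 1 was past the fold higher, Sema3f, a Nrp2 ligand, at 0.65, and 7 lower, where 44.1% of all genes were, down to the receptor Plxna4 at -1.21. The aged hearts had 2 higher with I/R, led by Sema3g at 0.74, and 4 lower, down to Plxna3 at -1.02 (interval -1.54 to -0.50). Between sham hearts none passed in either direction, with Sema3f at 0.39 and Plxna1 at -0.50 as the ends, and aged over young I/R ran from Plxna4 at 1.34 to Sema3f at -0.55.

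Of the angiopoietin and TIE genes, the other vessel-stabilising receptor system, 3 of 4 had enough UMIs. In young I/R 2 were past the fold lower, where 44.1% of all genes were, with Angpt1, the ligand made by mural and other support cells, at -0.81 and the receptor Tek highest at -0.43. None passed in aged I/R, with Angpt1 at 0.29 and Tie1 at -0.23. Between sham hearts none passed, with Tek at 0.25 and Angpt1 at -0.15, and aged over young I/R had 2 higher, where 41.1% of all genes were, with Angpt1 at 0.95 and Tie1 lowest at 0.37.

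For each member with at least 1000 UMIs over the 4 libraries, the genes of most similar profile were found among 9909 genes by Euclidean distance of centred log2 CPM over 4 values, which is too few for more than a description. Vegfa lay nearest to Pcdhgb4 (distance 0.093), Pcdhgc4 (0.10) and Klhl3 (0.12), and Nrp1 to Zfp160 (0.026), Gm4631 (0.047) and Polq (0.063). Pgf lay nearest to Cryab, a small heat shock protein of muscle, whose level ran from 1170 CPM in aged I/R to 2445 in young I/R (0.075), then to Ppan (0.16) and Trmt61a (0.19). Kdr lay nearest to Tspan2 (0.041), Vtn (0.041) and Lgi4 (0.049), of which Vtn is a mural marker. Flt1 lay nearest to 2610507B11Rik (0.035), Mpp6 (0.042) and Cwc27 (0.067). Nrp2 lay nearest to Cyp4f13 (0.055), Rapsn (0.079) and Zfp385a (0.079). Vegfb lay nearest to Gid4, Slc33a1 and Utp15 and Flt4 to Dhx34, Mosmo and Alg14, all within 0.036.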

How the data were processed

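The deposited files hold 1 gene-by-barcode matrix of UMI counts per library, which the authors made with Cell Ranger 6.0.2 on the mm10 reference per the labels. Whether intronic reads were counted is not given in the sources used here. Samples were grouped by their titles. All barcodes were used, and UMIs were summed per library and divided by all its UMIs (Python 3.11.15, numpy 2.4.6, scipy 1.17.1, figures with matplotlib 3.10.9). Levels have exact Poisson intervals, shares exact binomial intervals and ratios exact conditional intervals, all at 95% and for counting error only. The ratio step was tested on simulated data. Doublets were not called, since no cell types were assigned. Alternatives were scaling by the median of gene-wise ratios over 11881 genes, totals without Gm42418, Malat1 and mitochondrial genes, barcodes with at least 200 detected genes, a 2-fold threshold, other marker gates, another endothelial list and, chosen after seeing the data, barcodes with 3 to 5% Malat1. Named genes were all members, the highest and lowest gene of each pathway list per comparison and the 3 nearest profiles per member. Hif1a and single marker genes were added after their values were seen. Some genes that this rule names are not reported here. Members, lists and comparisons were chosen with earlier results of these data known. Positions are from GENCODE M21 (GRCm38). Nrp2 overlaps an opposite-strand gene, Gm29083, with 5 UMIs. The lymphatic list used 4 of 5 genes, Ccl21a being left out because 2 features carry that symbol.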

Additional observations from a re-analysis of the deposited data

Results flagged for a closer look

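For 4 genes the I/R log2 ratio had opposite signs in the young and the aged hearts, and with 1 library per condition that difference was not tested. The aged ratio minus the young ratio was 1.77 for Nrp1, 1.09 for Flt1, -1.07 for Pgf and 0.22 for Vegfb. For Flt1 and Vegfb the signs rest on the scaling, since the young ratios turned to 0.17 and 0.27 and the aged Vegfb ratio to -0.04 when libraries were scaled by gene-wise ratios. For Pgf the aged interval of -0.30 to 0.01 included 0. For Nrp1 the aged ratio of 0.21 stayed at 0.11 to 0.17 under the other scalings and barcode sets, but was -0.03 against the median of its length class. It was -0.01 per cardiomyocyte marker UMI, and 0.33 and -0.14 per UMI of the first and second endothelial lists, so its sign depends on the reference used.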

How the results depend on the processing

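No paired analysis was possible because each condition has 1 library. Leaving out a library was not possible either, for the same reason. The count of members past the fold in young I/R over young sham was 6, and 4 to 7 under the alternatives. Under the alternatives at 1.5-fold, 4.95% to 16.9% of all genes were past it higher and 23.8% to 44.0% lower. With a 2-fold threshold the counts were 0 for aged I/R over aged sham, 0 for aged over young sham and 2 for aged over young I/R, where 2, 2 and 5 members were past 1.5-fold. The share of all genes past 2-fold was not computed, so these counts cannot be read against it. Scaling by the median of gene-wise ratios gave 1 for aged over young sham and 2 for aged over young I/R. All-gene shares were then 11.2% higher and 12.0% lower between sham hearts, and 20.3% and 12.4% between I/R hearts. Within barcodes with 3 to 5% of UMIs from Malat1, chosen after seeing the data, no member was past the fold in aged over young sham, a count of 0. In those barcodes 6.45% of all genes were higher and 5.82% lower, against 7.25% and 18.2% over all barcodes. Of the single ratios, 30 moved beyond their counting interval and 6 did not under gene-wise scaling, and 24 moved with totals without Gm42418, Malat1 and mitochondrial genes, 16 in barcodes with at least 200 detected genes and 30 in the Malat1 range. No ratio past the fold changed its sign. The gates for marker-rich barcodes were too small for most members, and the cardiomyocyte gate, with 2 to 9 barcodes, gave no usable value. Depth limits Vegfc and Flt4 most, and spread between mice is unknown.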
